A study of Mus musculus with 12 samples.

Results

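Described here are 10 genes of iron storage, uptake and export around the iron regulatory proteins, chosen by name among the 55414 genes counted: the uptake genes Tfrc and Slc11a2, the ferritins Fth1 and Ftl1 with their chaperone Pcbp1 and their degradation receptor Ncoa4, the exporter Slc40a1, the regulators Aco1 and Ireb2, and Fbxl5, which degrades IRP2. Each symbol matched 1 row of the count table. Cells adjust iron uptake, storage and export through 2 iron regulatory proteins, IRP1 and IRP2, which bind a short hairpin called the iron-responsive element (IRE) in certain mRNAs when iron is scarce. Binding in a 5′ UTR blocks translation, as for the ferritins and ferroportin, while binding in a 3′ UTR protects the mRNA from decay, as for the transferrin receptor. The liver is the main iron store of the body, with hepatocytes holding ferritin and Kupffer cells, the liver macrophages, returning iron from old red cells to the blood through ferroportin.

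RNAseq was made from livers of 12 mice labelled C57Bl/6J, female and 8 – 12 weeks old according to the methods, in 4 groups of 3. Mice first received NaCl (0.9% saline) or FeSO4 at 300 mg/kg, and 6 h later PBS or the synthetic glucocorticoid dexamethasone (DEX) at 10 mg/kg, both intraperitoneally by the methods. Livers were taken 2 h after the second injection, 8 h after the first. The groups are called NaCl/PBS, NaCl/DEX, FeSO4/PBS and FeSO4/DEX, and the comparisons ask what acute iron overload does to liver mRNA and whether it alters the response to DEX. FeSO4 came as a single large dose, so every iron value is an early one, and each mouse gave 1 library.

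Libraries held 16335651 to 23827340 counted reads, of which the 10 genes took 0.282% to 0.678%. The hepatocyte markers were abundant, with Alb reaching 2248616 reads in a library. FeSO4/PBS mouse 1 stood apart for several of the genes: it had the highest Fth1, Ftl1 and Pcbp1 of the 12 mice and the lowest Tfrc and Ncoa4 of its group. Values below are normalized counts, which are reads scaled by TMM factors so that libraries can be compared. LFC is the log2 fold change of the first group named against the second, and a gene is called changed at an edgeR FDR of 0.05 or less over the 13857 genes tested. All 10 genes passed the filter on low counts. In bulk liver, fewer cells of a type and less RNA per cell cannot be told apart.

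The IREs show how differently these mRNAs carry the same signal. They were searched in the transcripts of GENCODE vM39 on GRCm39 as a loop CAGTGN, with 5 paired bases on each side and a C before the upstream arm, and are printed 5′ to 3′ on the gene's strand as DNA, with the loop in capitals. Tfrc carried 4 such elements in its 3′ UTR (exon 19 of 19), on the plus strand, whereas Fth1, Ftl1 and Slc40a1 carried 1 element each in the 5′ UTR (exon 1). The element of Slc11a2, a weaker match, is shown for comparison.
Tfrc, chr16:32450037-32450066: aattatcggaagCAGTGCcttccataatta
Tfrc, chr16:32450416-32450445: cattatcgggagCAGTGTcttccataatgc
Tfrc, chr16:32450481-32450510: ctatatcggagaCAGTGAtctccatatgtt
Tfrc, chr16:32450528-32450557: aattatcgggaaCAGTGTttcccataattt
Fth1, chr19:9960096-9960125, plus strand: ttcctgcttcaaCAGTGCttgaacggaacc
Ftl1, chr7:45109202-45109231, minus strand: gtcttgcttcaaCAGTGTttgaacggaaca
Slc40a1, chr1:45964624-45964653, minus strand: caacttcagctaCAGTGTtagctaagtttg
Slc11a2, chr15:100293033-100293062, minus strand: agccatcagagcCAGTGTgtttctatggtt

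The Slc11a2 hairpin lay in a 3′ UTR, paired 4 of 5 positions and was present in 13 of 34 annotated transcripts, without the canonical one. Slc11a2 mRNAs end in alternative last exons with or without the element, and the counts per gene do not separate them. A full match in a UTR was found in 289 of 21627 protein-coding genes (1.34%), and at least 4 of 5 pairs in 2313 (10.7%). Ireb2, Fbxl5, Ncoa4 and Pcbp1 had neither, and a single 4 of 5 match of Aco1 lay in 1 of 26 transcripts. No full element was found in the regulators themselves, while Tfrc, both ferritins and Slc40a1 held one or more. The promoters (250 bases before to 50 after the start) were also searched on both strands for TGACNNNGC, the core of the antioxidant response element, and ACANNNTGT, the core of the glucocorticoid response element. None of the 10 promoters held either, against 12.5% and 5.94% of all promoters, which says only that these letters are not in these windows.

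Levels of different genes are compared as RPKM, reads scaled to the length of the canonical transcript and to the library. In NaCl/PBS livers, the ferritin mRNAs led with 1115 ± 76.8 RPKM for Fth1 and 943 ± 178 for Ftl1 (SD, n = 3), whose mice overlapped. Pcbp1 (68.4 ± 3.08), Slc40a1 (54.1 ± 4.43) and Aco1 (43.1 ± 1.32) came next and did not overlap their neighbours. Ireb2 was lower at 17.4 ± 1.16 RPKM, then Ncoa4 at 9.54 ± 1.51. Fbxl5 (7.57 ± 0.358) and Slc11a2 (7.33 ± 2.19) overlapped each other, and Tfrc was the lowest of the 10 at 3.25 ± 0.42 RPKM. Control livers thus held far more ferritin mRNA than Tfrc mRNA. Tfr2, the other transferrin receptor, is outside the 10 genes. It had 6394, 7028 and 6679 normalized counts in these mice, against 351, 324 and 271 for Tfrc. The order depends on the transcript length used, since with the bases of all annotated exons Ftl1 (682) stood above Fth1 (294), and Aco1 (25.1) above Slc40a1 (19.9). Tfrc (2.25) was then above Slc11a2 (2.00) and Fbxl5 (1.64), so that it was the lowest of the 10 by canonical length alone. After FeSO4 and PBS, Slc40a1 fell to 14.1 ± 1.55 RPKM, in the range of Ireb2 (14.7 ± 0.86), and Tfrc at 7.34 ± 2.11 overlapped Ncoa4, Slc11a2 and Fbxl5.

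**Figure D1:**
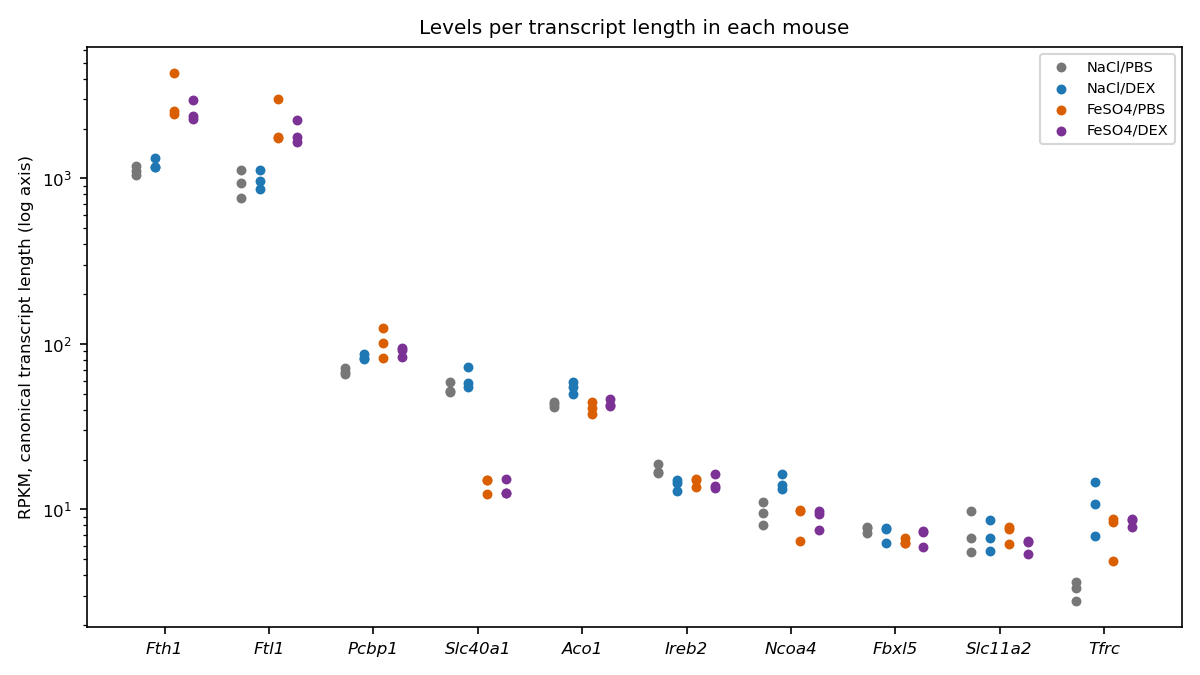
Levels of the 10 genes per transcript length, with RPKM on a log axis and 1 point for each mouse, coloured by group. Fth1 and Ftl1 lie above the other genes in every mouse, Slc40a1 drops in both FeSO4 groups, and Tfrc is lowest in NaCl/PBS mice.

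On GRCm39, the genes called in FeSO4/PBS against NaCl/PBS mice lie at chr19:9957911-9962462 (Fth1), chr7:45107367-45109308 (Ftl1), chr6:86501468-86504330 (Pcbp1), chr1:45947211-45965683 (Slc40a1) and chr16:32427556-32451612 (Tfrc). The regulators and the other genes lie at chr4:40142998-40199010 (Aco1), chr9:54770970-54820011 (Ireb2), chr5:43900859-43978980 (Fbxl5), chr14:31881822-31902234 (Ncoa4) and chr15:100285776-100322953 (Slc11a2).

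The response to iron alone is given by the PBS mice. In FeSO4/PBS against NaCl/PBS mice, Fth1, Ftl1, Tfrc and Pcbp1 rose and Slc40a1 fell, while Aco1, Ireb2, Fbxl5, Ncoa4 and Slc11a2 did not pass the test. These 5 of 10 stand against 54.5% of all genes called in this comparison (27.2% higher and 27.3% lower), so the number called is near the background. An LFC beyond 1 as well was reached by 4 of the 10 genes and 27.2% of all genes. The median LFC was -0.04 over the 10 genes and -0.02 over all genes. The sizes spanned -1.94 to 1.48.

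Fth1, which encodes the ferritin heavy chain that oxidises iron for storage, was at 20399, 21999 and 19182 normalized counts in the NaCl/PBS mice and at 79351, 45016 and 47138 in the FeSO4/PBS mice. The groups were far apart, and mouse 1 of the iron group was much higher than the other two. The LFC was 1.48 (SE 0.19, 95% interval 1.06 to 1.89, edgeR FDR 2.56e-05), and 1.17 without that mouse (edgeR FDR 8.81e-06). Ftl1, the light chain that builds the mineral core, was at 21553, 18060 and 14707 in NaCl/PBS and at 57648, 33522 and 34149 in FeSO4/PBS. The pattern over mice was like that of Fth1, again without overlap. Its LFC was 1.21 (SE 0.21, edgeR FDR 0.000322), and 0.91 without mouse 1 (edgeR FDR 0.000621). The 2 ferritin genes together took 0.198% to 0.245% of counted reads in NaCl/PBS mice and 0.367% to 0.619% in FeSO4/PBS mice.

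Pcbp1, a chaperone that delivers iron to ferritin, had 2458, 2599 and 2378 normalized counts in NaCl/PBS mice and 4510, 2976 and 3665 after FeSO4. The iron-treated mice were higher without overlap but spread widely. The LFC was 0.58 (SE 0.13, edgeR FDR 0.00184), and 0.43 without mouse 1 (edgeR FDR 0.00552). With scaling by library size alone it was 0.26 and no longer called (edgeR FDR 0.0932). The lncRNA 1600020E01Rik overlaps 2004 exon bases of Pcbp1 on the other strand and had 75 to 149 reads against 2433 to 4474 for Pcbp1.

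Ferritin pseudogenes could take reads from their parents. Of 16 genes named as ferritin relatives, 2 passed the filter, and both rose with the parents. Fth1-ps had an LFC of 1.59 (edgeR FDR 0.00922) at no more than 56.4 normalized counts, and Ftl1-ps1 an LFC of 1.15 (edgeR FDR 0.00574) at no more than 80.6. Reads of these near copies cannot be separated from those of Fth1 and Ftl1 with certainty. Their counted levels were small beside the parents, which does not tell how many reads of the parents were misplaced or left uncounted. Copies under other names were not searched.

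Slc40a1, which encodes ferroportin, the iron exporter, showed the largest change of the 10. It had 3575, 3503 and 4061 normalized counts in NaCl/PBS mice against 1032, 844 and 1025 in FeSO4/PBS mice. Every iron-treated mouse was far below every control mouse, with little spread inside either group. The LFC was -1.94 (SE 0.14, 95% interval -2.24 to -1.64, edgeR FDR 1.18e-07), which left 0.26 of the control level.

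Markers of Kupffer cells and macrophages moved with Slc40a1. Of 12 markers, 9 fell and 0 rose in FeSO4/PBS against NaCl/PBS mice, where 27.3% of all genes fell and 27.2% rose. The median LFC of the markers was -0.67 and ranged from -1.81 for Marco to 0.20 for Cd68, and none was at 0. Clec4f, a Kupffer cell lectin, had an LFC of -0.63 (edgeR FDR 0.00315), and Csf1r, the receptor for a macrophage growth factor, one of -1.16 (edgeR FDR 5.04e-05). The summed markers ranged from 11241 to 13081 normalized counts in NaCl/PBS mice and from 6749 to 7768 in FeSO4/PBS mice. The LFC of Slc40a1 was below that of each of the 12. That of Marco (-1.81) lay inside the 95% interval of Slc40a1 (-2.24 to -1.64), and their difference was not tested. Set against the marker sum, Slc40a1 was at 28.1% to 31.8% in NaCl/PBS mice and at 11.7% to 15.3% in FeSO4/PBS mice, without overlap. The part of the markers' fall in that of Slc40a1 was not tested.

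**Figure D2:**
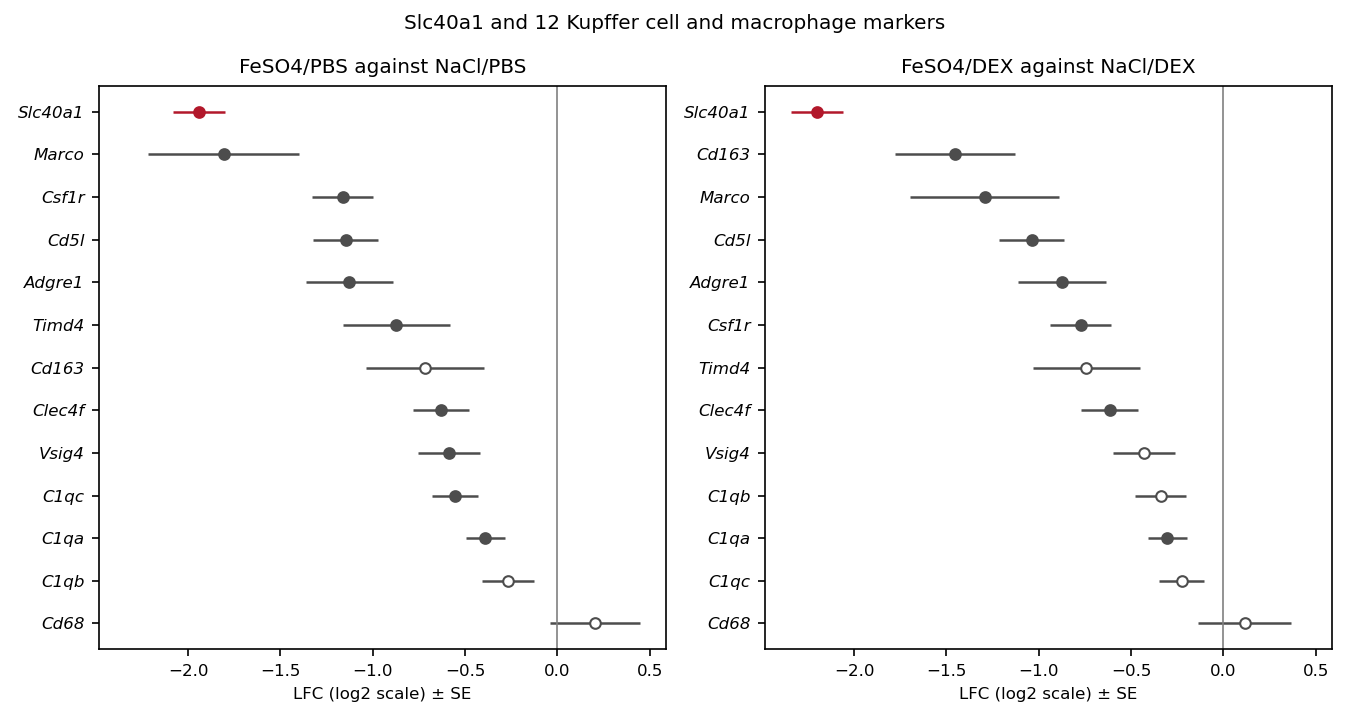
LFC with its SE for Slc40a1 (red) and 12 markers of Kupffer cells and macrophages (grey), without DEX on the left and with DEX on the right. Filled points passed an edgeR FDR of 0.05, and Slc40a1 lies to the left of all 12 markers in both panels, at -1.94 and -2.20.

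Tfrc, the receptor that takes up transferrin-bound iron, was at 351, 324 and 271 normalized counts in the NaCl/PBS mice and at 476, 847 and 811 in the FeSO4/PBS mice. The groups did not overlap, and mouse 1 of the iron group, the one with the most ferritin mRNA, was closest to the controls. The LFC was 1.17 (SE 0.25, 95% interval 0.64 to 1.70, edgeR FDR 0.0012), and 1.40 without that mouse (edgeR FDR 0.000154). Tfrc and ferritin mRNA therefore both rose in the same livers. Slc11a2, the divalent metal transporter DMT1, was at 405, 584 and 329 in NaCl/PBS and at 472, 455 and 372 in FeSO4/PBS mice. These mice overlapped fully, and the LFC of -0.02 had an interval of -0.44 to 0.41.

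The regulators moved little. Aco1 encodes IRP1, which is also the cytosolic aconitase, and had 4030, 3791 and 3931 normalized counts in NaCl/PBS mice and 3726, 4072 and 3422 in FeSO4/PBS mice. The groups overlapped, with an LFC of -0.07 (95% interval -0.29 to 0.16). Ireb2, encoding IRP2, was at 2175, 1955 and 1929 against 1597, 1751 and 1784. All iron-treated mice were lower, yet the LFC of -0.24 (interval -0.48 to -0.0050) missed the threshold at an edgeR FDR of 0.0779. Fbxl5, the iron-sensing part of the ligase that degrades IRP2, had 609, 555 and 596 against 485, 524 and 485. It too was lower in each iron-treated mouse and missed the threshold, with an LFC of -0.24 and an edgeR FDR of 0.103. Groups did not overlap for 60% of all genes in this comparison (29% higher and 31% lower). Ncoa4, the receptor that brings ferritin to autophagosomes, was at 717, 986 and 841 against 574, 870 and 885, which overlap, with an LFC of -0.13 (interval -0.50 to 0.24). Timm23 shares 116 exon bases with Ncoa4 on the other strand and had 281 to 612 reads, against 488 to 1351 for Ncoa4, so some reads may be split between them.

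Scaling mattered for these small values. With library size alone, without TMM factors, the median LFC of all genes moved to -0.34, and Aco1 (-0.39), Ireb2 (-0.56) and Fbxl5 (-0.56) were called lower, so that changes of this size are only relative to the other genes. Tfrc, Fth1 and Ftl1 stayed higher and Slc40a1 lower under every scaling tried.

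**Figure D3:**
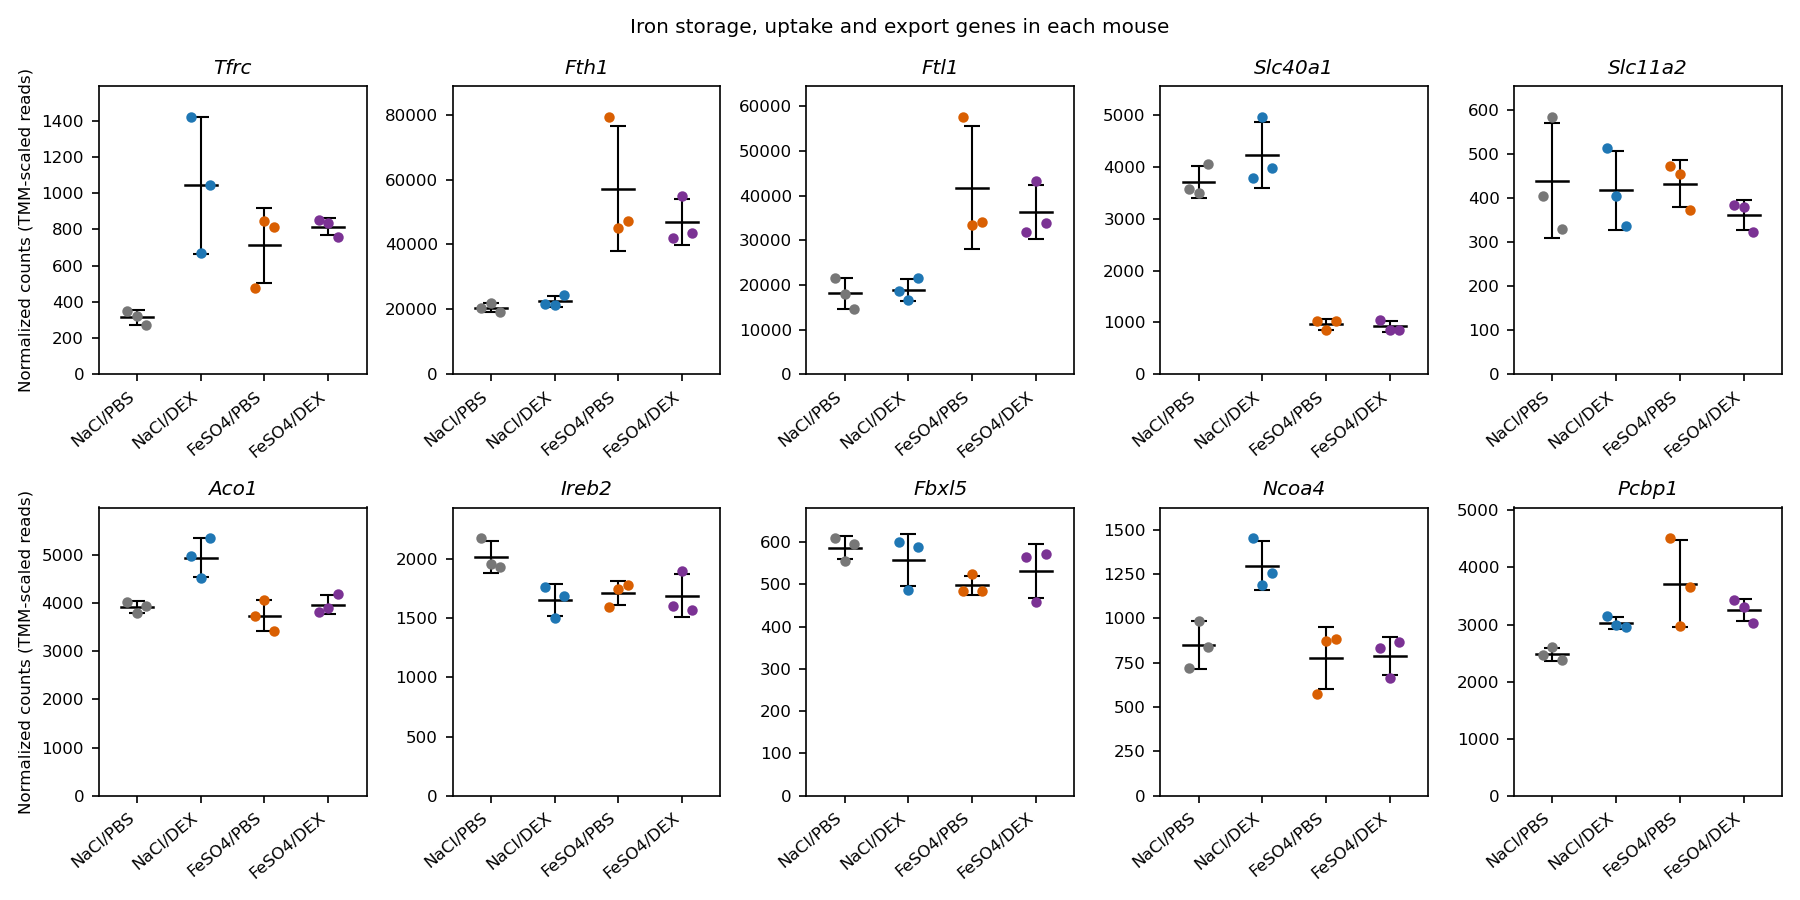
Normalized counts of the 10 genes, with 1 point for each mouse, a bar for the group mean and error bars of 1 SD, on axes that start at 0. Slc40a1 separates FeSO4 from NaCl mice with little spread, the ferritins are higher after FeSO4 with mouse 1 of FeSO4/PBS on top, and Tfrc is lowest in NaCl/PBS.

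The same contrast in DEX-treated mice shares no mouse with the one above. In FeSO4/DEX against NaCl/DEX mice, Fth1 and Ftl1 rose again and Slc40a1 fell again, whereas Tfrc and Pcbp1 did not pass the test and Aco1 and Ncoa4 fell. These 5 of 10 genes compare with 43.3% of all genes (22.4% higher and 20.9% lower), and 2 of the 10 with 20.5% where an LFC beyond 1 was also asked. The mice of both groups did not overlap for the 5 called genes, and for 55.9% of all genes (28.8% higher and 27.1% lower). The median LFC was -0.14 over the 10 and 0.01 over all genes. With scaling by library size alone the median of all genes was -0.18.

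Fth1 had 21567, 21470 and 24360 normalized counts in NaCl/DEX mice and 42026, 55055 and 43676 in FeSO4/DEX mice. Its LFC was 1.06 (SE 0.19, edgeR FDR 0.000528). Ftl1 had 18566, 16681 and 21566 against 31747, 43196 and 33978, with an LFC of 0.94 (SE 0.21, edgeR FDR 0.00274). Both ferritins were higher in all 3 iron-treated mice than in any of the NaCl/DEX mice. Slc40a1 was at 3781, 4971 and 3978 in NaCl/DEX mice and at 1048, 859 and 857 in FeSO4/DEX mice, an LFC of -2.20 (SE 0.14, edgeR FDR 9.18e-08). The exporter was again far below the controls in each mouse. Of the Kupffer cell and macrophage markers, 7 of 12 fell and 0 rose here, against 20.9% and 22.4% of all genes. The markers had a median LFC of -0.68, between -1.45 for Cd163 and 0.12 for Cd68. Their sum was 10684 to 12280 in NaCl/DEX and 5719 to 9023 in FeSO4/DEX mice, and Slc40a1 made 33.7% to 40.5% and 11.6% to 15.0% of it.

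Tfrc had 1422, 668 and 1043 normalized counts in NaCl/DEX mice and 852, 833 and 761 in FeSO4/DEX mice. The 2 groups overlapped because the NaCl/DEX mice spread widely, and the LFC was -0.36 (95% interval -0.87 to 0.16, edgeR FDR 0.252). Leaving out NaCl/DEX mouse 2, the lowest of its group, gave an LFC of -0.60 that passed (edgeR FDR 0.0428), as did testing without a filter on low counts (-0.38, edgeR FDR 0.0401). Pcbp1 was at 3146, 2986 and 2951 against 3423, 3307 and 3034, with an LFC of 0.10 (interval -0.18 to 0.39). The iron-treated mice overlapped the others, which were themselves above the NaCl/PBS mice.

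Ncoa4 fell from 1450, 1186 and 1255 normalized counts in NaCl/DEX mice to 830, 663 and 868 in FeSO4/DEX mice. The groups were apart, with an LFC of -0.72 (SE 0.17, edgeR FDR 0.00393). Aco1 fell less, from 4970, 4526 and 5344 to 3818, 3888 and 4194, with an LFC of -0.32 (SE 0.10, edgeR FDR 0.0239). Its call rested on single mice and was lost without NaCl/DEX mouse 1 (edgeR FDR 0.0588), NaCl/DEX mouse 3 (0.0996) or FeSO4/DEX mouse 1 (0.0721), and without a filter on low counts (0.0659). It was also lost with same-numbered mice as a block within PBS and within DEX mice (-0.32, edgeR FDR 0.0536). The remaining regulators were not called, with LFCs of 0.03 for Ireb2 (interval -0.20 to 0.27) and -0.07 for Fbxl5 (interval -0.32 to 0.18), and Slc11a2 had one of -0.21 (interval -0.64 to 0.22).

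The response to DEX alone is given by the NaCl mice. In NaCl/DEX against NaCl/PBS mice, Tfrc, Ncoa4 and Aco1 rose and none of the 10 fell, while 13.7% of all genes were called (6.5% higher and 7.15% lower). With an LFC beyond 1 these were 1 of the 10 and 6.38% of all genes. This comparison shares its control mice with the first one and its DEX-treated mice with the second, so the values are set side by side and not tested against each other. The median LFC was 0.16 over the 10 genes and -0.02 over all genes.

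The Tfrc values of 1422, 668 and 1043 stood against 351, 324 and 271 in NaCl/PBS mice, so that even the lowest DEX-treated mouse had well above the highest control. The LFC was 1.73 (SE 0.25, 95% interval 1.19 to 2.26, edgeR FDR 0.000346), the largest DEX response among the 10. Ncoa4 had an LFC of 0.61 (SE 0.17, edgeR FDR 0.0277), with all 3 DEX-treated mice above the controls. Without NaCl/PBS mouse 1 (edgeR FDR 0.122), NaCl/PBS mouse 3 (0.0843), NaCl/DEX mouse 1 (0.102) or NaCl/DEX mouse 3 (0.0634) that call was lost. Aco1 had an LFC of 0.34 (SE 0.10, edgeR FDR 0.0462), again with no overlap. It was lost without any of the NaCl/PBS mice, NaCl/DEX mouse 1 or 3, or FeSO4/DEX mouse 1, at edgeR FDRs of 0.0553 to 0.183, and without a filter on low counts (0.126). Scaling by library size alone also lost Ncoa4 (edgeR FDR 0.0994) and Aco1 (edgeR FDR 0.239), with a median of all genes of -0.18.

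The ferritins and ferroportin were not called with DEX in these mice. Fth1 had an LFC of 0.13 (interval -0.28 to 0.54), Ftl1 one of 0.06 (interval -0.39 to 0.52) and Slc40a1 one of 0.19 (interval -0.09 to 0.48), all with overlapping mice. These intervals leave room for changes of about the size seen for Aco1. They also draw on mice outside the comparison. Without FeSO4/PBS mouse 1 the SE went from 0.19 to 0.12 for Fth1 and from 0.21 to 0.16 for Ftl1. For Slc40a1 it stayed at 0.13. Ireb2 was lower in each DEX-treated mouse, at 1763, 1504 and 1690 normalized counts, with an LFC of -0.29 (edgeR FDR 0.101). Pcbp1 was higher in each, with an LFC of 0.29 (edgeR FDR 0.173), and neither passed. Library size alone put Ireb2 past the threshold (-0.44, edgeR FDR 0.0119), and Pcbp1 passed with the 6 libraries of the comparison alone (0.31, edgeR FDR 0.0287) or without FeSO4/PBS mouse 1 (0.31, edgeR FDR 0.0473). For all genes, groups did not overlap in 37.9% (17.6% higher and 20.3% lower). Fbxl5 and Slc11a2 had LFCs of -0.07 each, with intervals of -0.32 to 0.18 and -0.50 to 0.35.

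After FeSO4, no response of these genes to DEX was detected. This comparison shares its groups with both iron comparisons. In FeSO4/DEX against FeSO4/PBS mice edgeR called 0 of the 10 genes and 0% of all genes, where 900 of the 13857 genes and 0 of the 10 had an unadjusted p below 0.05. DESeq2 called 10 of all genes and 0 of the 10. The mice overlapped for all 10 genes, while 9.3% of all genes showed no overlap (4.45% higher and 4.85% lower). The LFCs ran from -0.29 for Fth1 (interval -0.69 to 0.12) to 0.20 for Tfrc (interval -0.32 to 0.72). Without FeSO4/PBS mouse 1, Fth1 (0.0035) and Tfrc (-0.05) were both near 0. Tfrc in FeSO4/DEX mice lay between 761 and 852 normalized counts, against 476 to 847 in FeSO4/PBS mice. Ncoa4, with 830, 663 and 868 after both agents, had an LFC of 0.02 (interval -0.35 to 0.39), and Aco1 one of 0.08 (interval -0.14 to 0.31).

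Whether iron changed the DEX response was tested directly as the difference between both responses. Tfrc was the 1 gene of the 10 that passed, with a difference of -1.53 on the log2 scale (SE 0.35, 95% interval -2.27 to -0.79, edgeR FDR 0.0172), where 6.18% of all genes passed (2.99% higher and 3.2% lower, and 4.14% with a difference beyond 1). The LFC of Tfrc with DEX was 1.73 in NaCl mice, where it passed, and 0.20 in FeSO4 mice, where it did not (edgeR FDR 0.906). Read the other way, the LFC of Tfrc with FeSO4 was 1.17 in PBS mice and -0.36 in DEX mice. The call was lost without NaCl/PBS mouse 3 (-1.44, edgeR FDR 0.0502) and held in each of the other alternatives run. Ncoa4 (-0.59, interval -1.11 to -0.07, edgeR FDR 0.183) and Pcbp1 (-0.48, interval -0.88 to -0.08, edgeR FDR 0.155) did not pass, although Ncoa4 did without FeSO4/PBS mouse 1 (-0.81, edgeR FDR 0.0238) or without a filter on low counts (-0.61, edgeR FDR 0.0449) and Pcbp1 without FeSO4/PBS mouse 2 (-0.62, edgeR FDR 0.0372). For Slc40a1 the difference was -0.26 (interval -0.67 to 0.15). Those of Fth1 and Ftl1 were -0.42 (interval -0.99 to 0.16) and -0.27 (interval -0.91 to 0.37), and without FeSO4/PBS mouse 1 they were -0.15 and -0.0066. Without that mouse the differences of Tfrc (-1.79, edgeR FDR 0.00231) and Pcbp1 (-0.36, edgeR FDR 0.191) kept their calls.

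**Figure D4:**
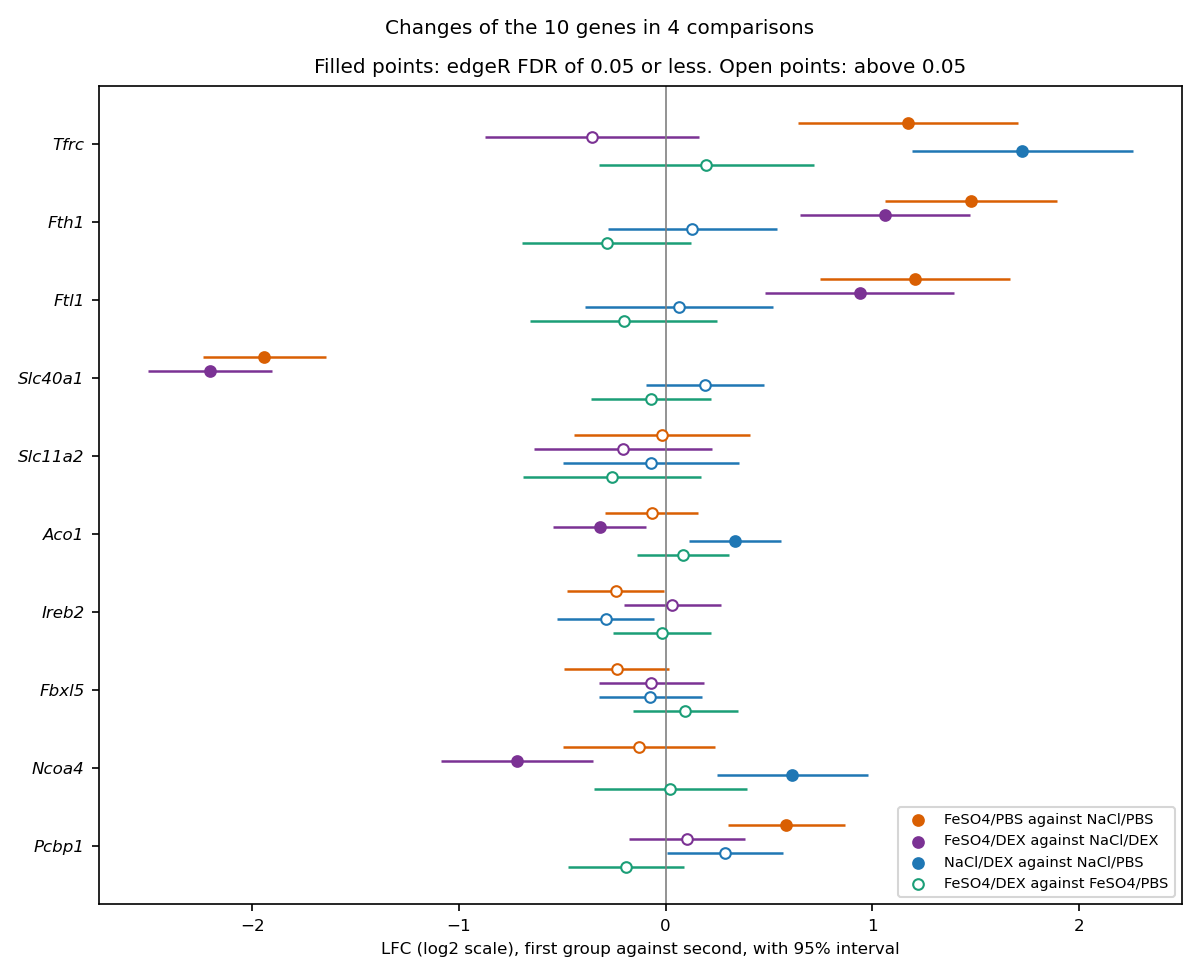
LFC of the 10 genes in 4 comparisons, each with its 95% interval, with filled points at an edgeR FDR of 0.05 or less. Ferritins and Slc40a1 move in both iron comparisons (orange and purple), Tfrc in the iron comparison without DEX and in the DEX comparison without iron (orange and blue), and all points of the DEX comparison after iron (green) are open.

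Ratios within a library do not depend on scaling. The Fth1 to Ftl1 ratio of counts was 0.946, 1.22 and 1.30 in NaCl/PBS mice and 1.38, 1.34 and 1.38 in FeSO4/PBS mice. With DEX it was 1.16, 1.29 and 1.13 in NaCl mice and 1.32, 1.27 and 1.29 in FeSO4 mice. It was more uniform after FeSO4 and higher in FeSO4/PBS than in any NaCl/PBS mouse. Over PBS and DEX mice together it was higher after FeSO4 by 0.19 on the log2 scale. A two-sided exact permutation test within PBS and DEX mice gave p = 0.015, and 0.045 after Benjamini-Hochberg adjustment over 3 ratios. Over the mice left out, the difference ranged from 0.12 to 0.23. It was smallest without NaCl/PBS mouse 1, whose ratio of 0.946 was the lowest. The tests of the ratios took mice as unpaired, although same-numbered mice were later taken as pairs, and a paired test was not run. By number, the ratio was higher after FeSO4 in each pair but number 2 of the DEX mice (1.29 and 1.27). Taken alone, PBS mice gave 0.25 (exact p = 0.1, the smallest that 3 against 3 allow) and DEX mice 0.12 (exact p = 0.3), with overlap.

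The ratio of summed ferritin to Tfrc counts sets ferritin mRNA against Tfrc mRNA alone, and leaves out Slc11a2, Tfr2 and the zinc and iron transporter Slc39a14. It was 120, 124 and 125 in NaCl/PBS mice and 288, 92.7 and 100.2 after FeSO4 and PBS. With DEX it was 28.2, 57.1 and 44.0 in NaCl mice and 86.6, 118 and 102 in FeSO4 mice. NaCl/DEX mice had the lowest values, and 2 of 3 FeSO4/PBS mice lay below the NaCl/PBS mice. The difference of FeSO4 from NaCl mice of 0.73 on the log2 scale did not pass (exact permutation p = 0.065, adjusted 0.0975), and it was 0.18 in PBS mice and 1.29 in DEX mice. The PBS value turned to -0.35 without FeSO4/PBS mouse 1, and the difference over PBS and DEX mice was then 0.47 (exact permutation p = 0.165). Ireb2 to Aco1, the ratio of IRP2 to IRP1 mRNA, averaged 0.515 ± 0.0245 in NaCl/PBS and 0.334 ± 0.0192 in NaCl/DEX mice, and 0.46 ± 0.0533 and 0.428 ± 0.0576 in the FeSO4 mice without and with DEX (SD, n = 3). It was lowest in NaCl/DEX mice, and the iron difference was 0.09 (exact permutation p = 0.455), with opposite signs in PBS mice (-0.17) and DEX mice (0.35).

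**Figure D5:**
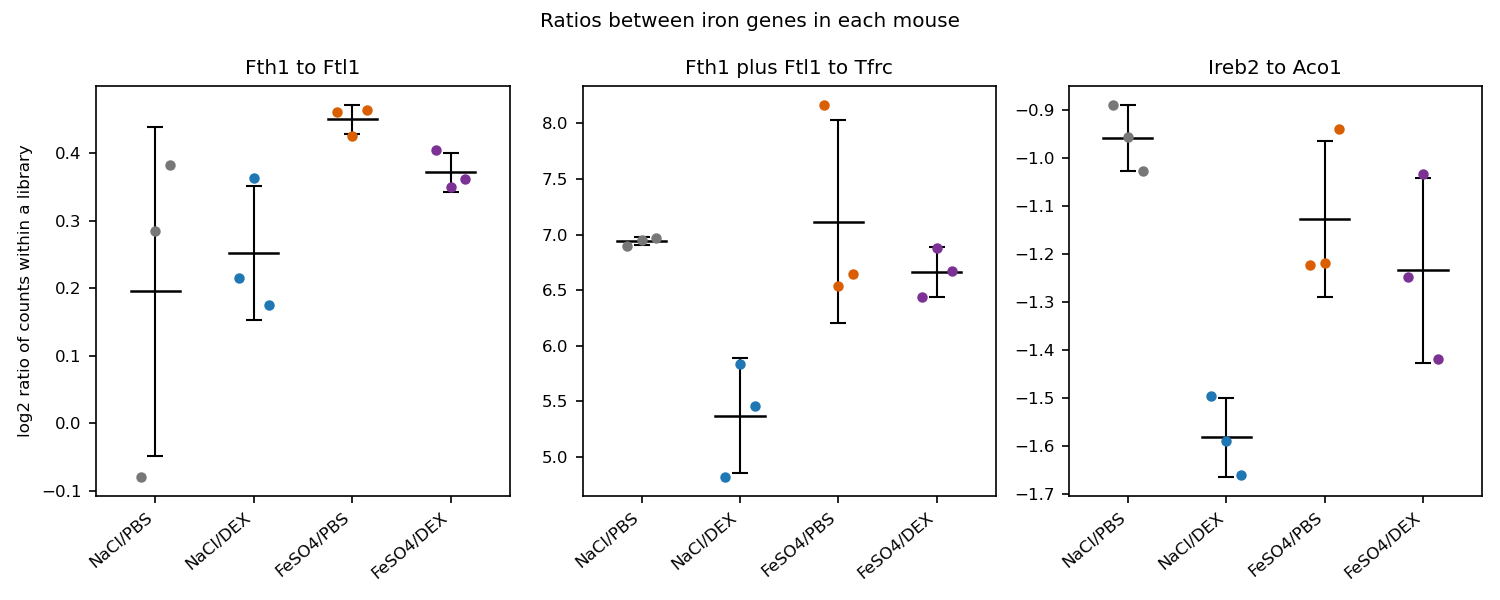
The log2 ratios of counts within each library for Fth1 to Ftl1, Fth1 plus Ftl1 to Tfrc, and Ireb2 to Aco1, with 1 point for each mouse, the group mean as a bar and error bars of 1 SD. NaCl/DEX mice are lowest in the middle and right panels, and the axes do not start at 0 because they are log scales.

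Other genes around this circuit were taken from 4 lists. The counts below stand against all genes, of which 27.2% were called higher and 27.3% lower with FeSO4 in PBS mice. In DEX-treated mice these shares were 22.4% and 20.9%. Of 8 further mRNAs described with an IRE, 3 rose and 2 fell in FeSO4/PBS against NaCl/PBS mice, with a median LFC of 0.07. Epas1, the hypoxia factor HIF-2α, rose from 3619, 4039 and 3959 normalized counts to 6647, 8501 and 9871, with an LFC of 1.11 (edgeR FDR 1.45e-05). Hao1, a peroxisomal glycolate oxidase, fell by 0.58 on the log2 scale (edgeR FDR 0.0123), and Pfn2, an actin-binding profilin with no more than 45.1 normalized counts, by 0.93 (edgeR FDR 0.0459). Alas2, the erythroid enzyme of heme synthesis, in which a full element was found, had an LFC of 0.13 (edgeR FDR 0.722). In the DEX-treated mice 3 of the 8 rose and 0 fell.

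Among 9 genes of IRP2 and NCOA4 turnover and ferritin autophagy, 6 rose and 2 fell, with a median LFC of 0.46. Map1lc3b, the autophagosome protein LC3B, rose from 1400, 1752 and 1316 to 4066, 4324 and 4054 normalized counts (LFC 1.48, edgeR FDR 7.47e-06). The ligase scaffold Cul1 (LFC 0.70, edgeR FDR 0.000117) and its RING partner Rbx1 (LFC 0.74, edgeR FDR 0.000219), which work with Fbxl5, rose while Fbxl5 itself had -0.24. Tax1bp1, an autophagy receptor, rose as well (LFC 0.68, edgeR FDR 2.83e-05). The 2 that fell were Herc2 (LFC -0.55, edgeR FDR 0.00409) and Atg9a (LFC -0.44, edgeR FDR 0.0171). Of those that rose, Gabarapl2 (LFC 0.31, edgeR FDR 0.0389) was not called with same-numbered mice as a block (edgeR FDR 0.0767). With DEX on both sides 5 of 9 rose and 1 fell, which was Herc2 (LFC -0.91, edgeR FDR 0.000136). With same-numbered mice as a block, Tax1bp1 (LFC 0.24, edgeR FDR 0.106) and Rb1cc1 (LFC 0.31, edgeR FDR 0.0823) were no longer called there.

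Of 12 iron chaperone and cytosolic iron-sulfur assembly genes, 11 were tested, 3 rose and 1 fell, with a median LFC of 0.20, and Ndor1 had 0 reads. Ciapin1, an assembly factor, rose from 309, 317 and 348 to 1100, 671 and 645 normalized counts (LFC 1.31, edgeR FDR 0.000154). Pcbp2, the relative of Pcbp1, had an LFC of 0.44 (edgeR FDR 0.0017) and Bola2 one of 0.43 (edgeR FDR 0.0414, and 0.0625 with same-numbered mice as a block), while Ciao1, of the targeting complex, fell by 0.49 on the log2 scale (edgeR FDR 0.00317). In the DEX-treated mice 2 rose and 1 fell.

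Of 9 genes of the transferrin cycle and of export partners, 3 rose and 0 fell in both iron comparisons, with medians of 0.10 and 0.24. Slc39a14, the zinc and iron transporter ZIP14, rose from 5944, 9169 and 6108 normalized counts in NaCl/PBS mice to 37322, 36814 and 36780 after FeSO4 and PBS. Its LFC was 2.39 (SE 0.18, edgeR FDR 2.24e-07), with tight iron-treated mice far above all controls. Hamp, encoding hepcidin, the hormone that removes ferroportin from the cell surface, rose from 20455, 18047 and 8276 to 56028, 34725 and 25888 (LFC 1.32, edgeR FDR 0.0042). Hfe, a regulator of hepcidin, rose too (LFC 0.70, edgeR FDR 0.000427). Trf, which encodes transferrin, had an LFC of 0.18 (edgeR FDR 0.207). Alas2, Trf, Tfr2, Herc2, Atg9a and the named cell markers were added after their values were seen.

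Marker mRNAs of some other cell types also changed with iron, in a comparison where 27.2% of all genes rose and 27.3% fell. Summed neutrophil markers lay at 116 to 277 normalized counts in NaCl/PBS and at 685 to 848 in FeSO4/PBS mice, where 4 of 5 tested markers rose, and Ly6g reached no more than 3 reads. Of 6 erythroid genes tested, 3 rose, all globins, and Epor fell, with sums of 1584 to 3756 and 2899 to 5578, while the red cell membrane gene Slc4a1 reached no more than 13 reads. Of 10 hepatocyte markers 4 rose and 0 fell, and the summed genes of dividing cells overlapped at 168 to 227 and 139 to 346. Their part in the changes of the 10 genes was not tested.

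The genes most like each changed gene over the 12 libraries were found by Pearson's r of log2 normalized values, as a description, since the 4 groups set most of the likeness. For Slc40a1 these were Sec14l1, Stard8 and Hexim1 (r from 0.989 to 0.991), and for Tfrc they were Dclre1b, Clip1 and Mrtfb (0.881 to 0.913), the least close of all. Fth1 was nearest to Sf3a2, Psmd11 and Ngdn (0.977 to 0.98), while Ftl1 was nearest to Mrps23, Rffl and Aatf (0.935 to 0.939). The nearest genes were Plaa, Ssu72 and Serbp1 for Pcbp1 (0.973 to 0.977), Rtn3, Nfu1 and Zfp141 for Aco1 (0.979 to 0.989), and Frk, Agtpbp1 and Cyria for Ncoa4 (0.964 to 0.969).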

How the data were processed

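The authors made stranded mRNA libraries from liver RNA and read them single-end. After FastQC, STAR 2.7.10b aligned the reads to mm39 with GENCODE v28, as the methods give it, and counted them per gene. The strand setting of the counts is not given in the sources used here. The deposited values are these raw counts for 55414 Ensembl genes, without normalization. Symbols came from GENCODE vM39, which matched 54749 identifiers and all 10 genes.

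Counts were scaled by TMM and tested in edgeR 4.0.16 (quasi-likelihood, R 4.3.3) with filterByExpr, all 12 libraries and a mean per group, without other terms. Benjamini-Hochberg adjustment ran over the 13857 genes that passed, with calls at 0.05. DESeq2 1.42.0, other scalings, filters, the replicate block and leaving out each mouse were the alternatives. On simulated data for FeSO4/PBS against NaCl/PBS, 164 of 200 genes changed by an LFC of 1 were recovered (82%), with 8 false calls among 13529 genes. The simulation drew all libraries from the same mean levels, changed only those 200 genes and had no library that stood apart. In the data 54.5% of genes were called in this comparison, so the simulated recovery and false calls do not carry over to it. RPKM used canonical transcript lengths. IREs and promoter motifs were searched by exact letters and pairing in GRCm39, which is the build of mm39.

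Named were all 10 genes, from each list up to 4 called genes with the largest LFC, and for each changed gene its 3 most alike genes, without Rik and Gm genes. A few listed genes count in their lists but are not reported here by name. The genes and lists were chosen with earlier results of these data known. Deviations from the group means of same-numbered mice correlated at 0.15 to 0.30 within PBS and within DEX mice (6 pairs of libraries, each r over 0.1), against -0.20 to -0.045 for different numbers there, and at -0.12 to 0.085 across PBS and DEX (12 pairs). Deviations within a group cancel out, so positive values for same numbers force negative ones for different numbers, which add no separate support. From the same-number values, numbers were taken to pair NaCl with FeSO4 mice within PBS and within DEX. The pairing comes from these values, since the labels give numbers without saying what they share, and a block for it was added after seeing the data. Nothing in the labels says more of how mice were housed or processed together than that each is a replicate. The p-values therefore measure the spread between these mice. In the fit this spread is shared per gene over all groups, so a p-value also draws on mice outside its comparison. Counts at this depth give precise values for single libraries. The spread between mice exceeded counting noise (chi-square per gene 18.3 to 89.5 between replicates, highest for pairs with FeSO4/PBS mouse 1). Every library was counted as its own mouse.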

Additional observations from a re-analysis of the deposited data

Results flagged for a closer look

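The DEX response differed between FeSO4 and NaCl mice for Tfrc, by -1.53 on the log2 scale (SE 0.35, edgeR FDR 0.0172), as the test of the difference itself showed. Of the listed genes around the circuit, Slc39a14 differed by -0.91 (SE 0.25, edgeR FDR 0.0431). Mms19, which targets iron-sulfur clusters to proteins, differed the other way, by 0.69 (SE 0.19, edgeR FDR 0.0467). With same-numbered mice as a block within PBS and within DEX mice, neither Slc39a14 (-0.96, edgeR FDR 0.0680) nor Mms19 (0.70, edgeR FDR 0.0709) passed. Mms19 had 517, 570 and 520 normalized counts in NaCl/PBS mice, 372, 370 and 367 in NaCl/DEX, 526, 656 and 766 in FeSO4/PBS and 628, 754 and 786 in FeSO4/DEX mice.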

How the results depend on the processing

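The rises of Fth1 and Ftl1 and the fall of Slc40a1 in both iron comparisons, the rise of Tfrc with FeSO4 and with DEX alone, and the fall of Ncoa4 in DEX-treated mice kept their direction and FDR call in every alternative run. With an LFC beyond 1 also asked, Ftl1 (0.94) and Ncoa4 (-0.72) in DEX mice were not called. The count of the 10 genes called with FeSO4 in PBS mice was 5 and ranged from 4 to 7. It was 5 in DEX mice (2 with an LFC beyond 1, and 4 to 6 over the mice left out), 3 for DEX alone (1 with an LFC beyond 1, and 1 to 4 over the mice left out), 0 for DEX after FeSO4, and 1 for the difference between both responses (2 without a filter, and 0 to 2 over the mice left out). Values not called changed sign as follows. Slc11a2 in PBS mice became 0.0022 with DESeq2 and 0.0034 with its size factors, and 0.0096 with the replicate block within PBS and within DEX mice. Scaling by library size alone gave -0.16 for Ireb2 and -0.091 for Pcbp1 in FeSO4/DEX against NaCl/DEX, -0.023 for Fth1 and -0.090 for Ftl1 with DEX alone, and -0.0097 for Ncoa4 with DEX after FeSO4. Over the mice left out, the ranges in FeSO4/PBS against NaCl/PBS were -0.19 to 0.24 for Slc11a2 and -0.23 to 0.055 for Ncoa4, and in DEX mice -0.090 to 0.079 for Ireb2. With DEX alone they were -0.24 to 0.20 for Slc11a2, -0.058 to 0.22 for Ftl1 and -0.12 to 0.018 for Fbxl5. With DEX after FeSO4 they were -0.046 to 0.34 for Tfrc, -0.43 to 0.0035 for Fth1, -0.36 to 0.079 for Ftl1, -0.18 to 0.12 for Ncoa4 and -0.12 to 0.022 for Ireb2. The Fth1 to Ftl1 difference was 0.25 in PBS and 0.12 in DEX mice alone, each not passing an exact test. It was 0.25 in PBS mice without FeSO4/PBS mouse 1. Over PBS and DEX mice together it ranged from 0.12 (without NaCl/PBS mouse 1) to 0.23 over the mice left out. The ferritin to Tfrc difference of 0.73 ranged from 0.47 to 0.88 over the mice left out and passed (exact permutation p = 0.035) without FeSO4/PBS mouse 2 or 3. In PBS mice without FeSO4/PBS mouse 1, as an alternative added after seeing the data, it was -0.35. The Ireb2 to Aco1 difference was -0.17 in PBS mice alone and -0.12 without that mouse. The cause of these shifts was not tested. With the replicate block within PBS and within DEX mice, which pairs NaCl with FeSO4 mice, Aco1 in DEX mice was lost (-0.32, edgeR FDR 0.0536) and no other call of the 10 genes changed, with 5, 4 and 1 of the 10 genes called for iron in PBS mice, iron in DEX mice and the difference. With 1 replicate block over all 12 mice, 5, 5, 2, 0 and 1 were called in the comparisons in the order above, without Aco1 for DEX alone (0.34, edgeR FDR 0.0823), where numbers were shared by label only. Of the listed genes, the paired block moved Steap3 in PBS mice past the threshold (-0.44, edgeR FDR 0.0420) and lost Gabarapl2 there (0.31, edgeR FDR 0.0767). Over all genes, the difference between both responses had 857 calls, and 1309 with DESeq2 and 1459 without a filter, and DEX after FeSO4 had 0, 10 and 170. Of the called genes 49.9% were higher with FeSO4 in PBS mice, and 28.2% with library size alone, 51.7% and 34.2% in DEX mice, 47.6% and 25.8% with DEX alone, and 48.3% and 63.7% for the difference. With 3 mice a group, intervals of genes not called reached as far as -0.87 (Tfrc with FeSO4 in DEX mice) and -1.11 (Ncoa4, the difference).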
